A study of Danio rerio with 45 samples.

Results

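The mitochondrial genome of the zebrafish was followed through 13 protein genes out of 31465 genes in the count table. They are all the rows whose symbol starts with "mt-" in either letter case, and all lie on the mitochondrial chromosome. In the order in which they follow each other there, they are MT-ND1 (ENSDARG00000063895), MT-ND2 (ENSDARG00000063899), MT-CO1 (ENSDARG00000063905), MT-CO2 (ENSDARG00000063908), mt-atp8 (ENSDARG00000063910), MT-ATP6 (ENSDARG00000063911), MT-CO3 (ENSDARG00000063912), MT-ND3 (ENSDARG00000063914), mt-nd4l (ENSDARG00000063916), MT-ND4 (ENSDARG00000063917), MT-ND5 (ENSDARG00000063921), MT-ND6 (ENSDARG00000063922) and MT-CYB (ENSDARG00000063924). The 2 ribosomal RNA genes and 22 transfer RNA genes of the mitochondrial genome were not analysed here, because no row could be paired with such a symbol. All 13 genes passed the filter on low counts, which kept 21075 genes. Together they held 2.11% of the counts of the 43 libraries used.

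The samples were explants cut from the animal side of zebrafish blastulae of the AB strain and cultured in medium to 4, 5 or 6 hours after fertilization (hpf). Explants came from uninjected controls, or from embryos in which 1 cell of the animal pole had received 2, 6 or 10 pg of mRNA of ndr2, a gene for a Nodal signal, at the 128-cell stage. In a further group with 10 pg, cycloheximide (CHX), an inhibitor of translation, was present at 50 µg/µl, as the labels give it, from 20 min after the injection until harvest. This makes 5 treatments at 3 ages with 3 libraries each. Uninjected explants with CHX were not analysed here, so the effect of CHX was measured in injected explants alone, against 10 pg without CHX and against the uninjected control. Because the mRNA went into 1 cell, an explant mixes its progeny with uninjected cells. The labels do not say whether replicates came from separate clutches, so the p-values rest on the spread between these libraries. That spread was estimated for each gene over all groups together.

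Mitochondria carry their own small circular genome, which is passed on through the egg and is present in many copies per cell. Its protein genes encode core subunits of the respiratory chain and the ATP synthase, while most subunits of the same complexes are encoded in the nucleus, made on cytosolic ribosomes and imported. The genes are transcribed as long precursors from both strands and cut apart, and their mRNAs are read by mitochondrial ribosomes, which CHX does not block. The early embryo lives on maternal RNA and proteins until its own nuclear genome is switched on, and that change falls close to the earliest age sampled.

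Total counts of the libraries used ranged from 12137856 to 28551066. The third replicates of 10 pg and of 10 pg with CHX at 4 hpf held the same value in all 31465 genes and could not be assigned to either group, so both were left out and those groups have n = 2. At 4 hpf the 2 pg and 6 pg libraries stood apart from the other libraries of that age: 29% of all genes tested passed the threshold between 2 pg and control and 15.7% between 6 pg and control, but 0.147% between 10 pg and control. The labels name no batch, so a difference in preparation and the doses cannot be told apart. An age position was computed for each library from 500 genes outside the mitochondrial genome with large changes between 4 and 6 hpf in controls, with control at 4 hpf set to 0 and control at 6 hpf to 1. The 2 pg libraries of 4 hpf lay at 0.168 to 0.337 and the 6 pg libraries at 0.075 to 0.213, against -0.0423 to 0.0725 in the controls. The genes listed for the blastoderm (pou5f3, nanog, sox19b and CCNB1, a cell-cycle gene that is not specific to it) were detected in every library. Their summed level was 3586 to 5665 CPM, which are counts scaled to the size of the library.

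The share of a library's counts that fell in the 13 genes had its highest group means in the control and 10 pg libraries of 4 hpf. The controls of 4 hpf held 4.31%, 2.41% and 5.57%. With 2 pg at 4 hpf the share was 1.91%, 1.56% and 1.45%. With 6 pg at 4 hpf it was 1.30%, 1.61% and 1.46%, and with 10 pg 3.03% and 6.11%. All 6 libraries of 2 and 6 pg lay below all 3 controls, while both 10 pg libraries used lay among or above the controls. The left-out column shared by 10 pg and CHX at 4 hpf held 1.89%, below all 3 controls and within the range of 2 pg. Group means were 4.10% ± 1.59 in control (SD, n = 3), 1.64% ± 0.242 with 2 pg (n = 3), 1.46% ± 0.157 with 6 pg (n = 3) and 4.57% ± 2.18 with 10 pg (n = 2). The share therefore did not follow the dose in order. A share is relative to all counted RNA, and in bulk explants fewer cells of a type, less mitochondrial RNA per cell and more RNA from other genes cannot be told apart.

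At 5 hpf the control libraries held 1.62%, 1.15% and 2.98%, and the libraries of the 3 doses lay between 1.60% and 2.83%, within that range. At 6 hpf the controls lay between 1.87% and 2.16% and the doses between 1.23% and 2.28%, so the groups again overlapped. The SD between controls was 1.59 points at 4 hpf, 0.955 at 5 hpf and 0.149 at 6 hpf. From 4 to 6 hpf the control means were 4.10%, 1.92% and 2.03%. All 3 controls of 6 hpf lay below all 3 of 4 hpf, but 1 control of 5 hpf lay above the lowest of 4 hpf. The 10 pg means were 4.57%, 2.30% and 1.86% in the same order, and every 10 pg library of 5 and 6 hpf lay below both libraries of 4 hpf used. With 2 pg and 6 pg the 4 hpf values were already low. The means were 1.64%, 2.09% and 1.65% with 2 pg and 1.46%, 1.98% and 1.79% with 6 pg. They differed by less than the SD pooled over all groups, 0.867 percentage points, which the control and 10 pg libraries of 4 hpf raised. The SDs of the 2 pg and 6 pg groups themselves were 0.157 to 0.643 points, and within each dose the ranges of the ages overlapped.

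With CHX the share was lower than with 10 pg alone at the 2 later ages. The CHX libraries of 5 hpf held 0.718%, 1.70% and 1.65%, against 2.26%, 2.37% and 2.28% with 10 pg alone. At 6 hpf they held 1.40%, 1.57% and 1.65%, against 2.08%, 1.74% and 1.77% with 10 pg alone. At both ages every CHX library lay below every 10 pg library, and at 6 hpf also below every control, while at 5 hpf the CHX and control libraries overlapped. Against 10 pg the means differed by -0.948 points at 5 hpf and -0.323 at 6 hpf. The latter is less than the pooled SD of 0.867 points, though the SDs of the CHX and 10 pg groups there were 0.124 and 0.187. The CHX libraries overlapped with 6 pg at 5 hpf (1.60% to 2.67%). At 6 hpf they overlapped with 2 pg (1.23% to 1.99%) and 6 pg (1.49% to 2.28%). At 4 hpf the CHX libraries held 2.53% and 4.25%, against 3.03% and 6.11% with 10 pg alone, and the groups overlapped. The lowest share, in CHX replicate 1 of 5 hpf, had a 95% Wilson interval of 0.714% to 0.721%, and the highest, in 10 pg replicate 2 of 4 hpf, one of 6.10% to 6.13%. These intervals cover counting error only and are far narrower than the differences between replicates.

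**Figure D1:**
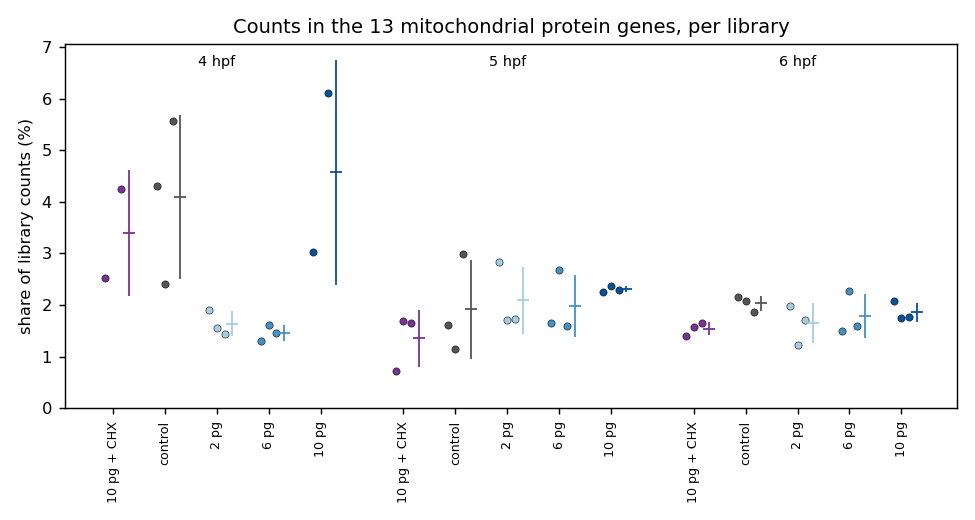
Percent of each library's counts in the 13 mitochondrial protein genes, by age and treatment; points are libraries and the cross beside them is the mean with its SD. The 2 pg and 6 pg libraries of 4 hpf lie between 1.30% and 1.91%, below the 3 controls of that age (2.41% to 5.57%), and all groups of 5 and 6 hpf lie below 3%.

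The make-up of the mitochondrial counts separated the libraries more sharply than their share did. It is given as each gene's percent of the counts in the 13 genes, a scale that no choice of library scaling can move. MT-CO1, the catalytic subunit of cytochrome c oxidase (complex IV), held 40.5% of these counts and was the most counted gene of all in 21 of the 43 libraries, with ranks from 1 to 14. MT-CO3 held 12.7%, MT-CYB 12.4%, MT-CO2 11.2% and MT-ATP6 6.00%, and the other 8 genes between 0.131% and 3.90%. These are shares of counts, not levels, since genes differ in length.

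MT-CO2, the subunit of complex IV that takes electrons from cytochrome c, took 18.4% and 19.8% of the mitochondrial counts in the 10 pg libraries of 4 hpf. It took 14.4% and 21.1% in the CHX libraries of 4 hpf and 14.1% to 15.05% in the controls of 4 hpf. In all other 36 libraries it took 6.76% to 10.5%, without overlap. The 2 pg and 6 pg libraries of 4 hpf, at 8.80% to 9.79% and 6.76% to 9.27%, were among these 36, with every library of 5 and 6 hpf. MT-ND5, a proton-pumping subunit of complex I, showed the reverse: 0.952% to 2.26% in the 7 libraries of control, 10 pg and CHX at 4 hpf, against 2.93% to 4.71% in the other 36. For the remaining 11 genes the 7 and the 36 libraries overlapped. The 7 libraries were set against the rest after their values had been seen, so no test is given.

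Counts of neighbouring genes gave the same division for mt-nd4l per MT-ND4 and for MT-ND6 per MT-ND5. The latter ratio uses MT-ND5 again and is not separate from the result above. For mt-atp8 per MT-ATP6 the libraries overlapped, at 1.67% to 4.41% in the 7 and 1.08% to 3.43% in the 36. The messages of mt-nd4l and MT-ND4 overlap and form 1 transcript in vertebrates, and mt-nd4l, a small membrane subunit of complex I, had 18.5% to 30.9% as many counts as MT-ND4 in the 36 libraries. In 35 of them the ratio did not exceed 21.6%, and replicate 3 of 6 pg at 4 hpf gave the value of 30.9%. In the 7 other libraries the ratio was 4.52% to 13.5%, with a mean of 7.78% ± 4.61 with CHX (SD, n = 2), 6.90% ± 2.65 with 10 pg (n = 2) and 11.3% ± 1.96 in control (n = 3). MT-ND6 is the only protein gene read from the light strand and lies next to MT-ND5 in the opposite direction. It had 39.0% to 110.4% as many counts as MT-ND5 in the 7 libraries and 26.2% to 37.1% in the 36. The deposited column shared by 10 pg and CHX at 4 hpf went with the 7, at 14.4% for MT-CO2, 13.6% for mt-nd4l per MT-ND4 and 40.7% for MT-ND6 per MT-ND5, though its share of 1.89% was low. Whether reads were counted by strand is not given in the sources used here, so reads of MT-ND6 and of the strand opposite to it cannot be told apart, and how reads over the overlaps of mt-nd4l with MT-ND4 and of mt-atp8 with MT-ATP6 were assigned is not given either.

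**Figure D2:**
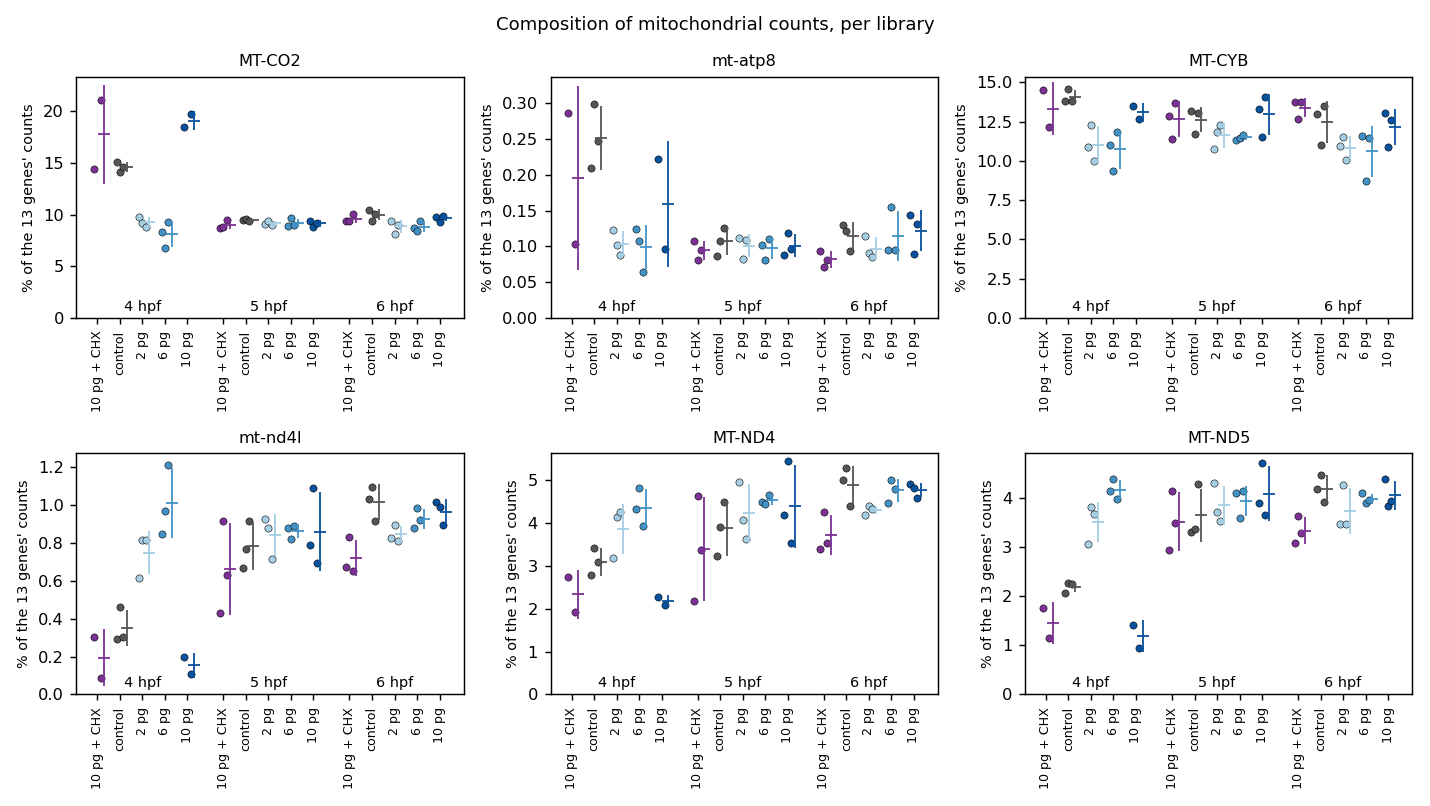
Percent of the 13 genes' counts taken by 6 of the genes, by age and treatment; points are libraries and the cross is the mean with its SD. MT-CO2 lies above 14% and MT-ND5 below 2.3% in control, 10 pg and CHX at 4 hpf only, and the 2 pg and 6 pg libraries of 4 hpf lie with those of 5 and 6 hpf.

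Set against the age position, libraries without CHX and with MT-CO2 above 14% lay at 0.0889 or less, and the others without CHX at 0.168 or more, except 6 pg replicate 1 of 4 hpf. The CHX libraries lay at age positions of 0.0694 to 0.281 at 5 hpf and 0.227 to 0.303 at 6 hpf, against 0.614 to 1.03 in all libraries of 5 and 6 hpf without CHX. Their MT-CO2 percentages, 8.69% to 9.47% at 5 hpf and 9.35% to 10.1% at 6 hpf, lay within the range of the libraries without CHX of both ages together, although CHX replicate 1 of 5 hpf lay below all libraries without CHX of 5 hpf. The 6 pg replicate 1 of 4 hpf had an age position of 0.075, close to the 0.0725 of control replicate 3 of 4 hpf, but MT-CO2 took 8.29% of its mitochondrial counts against 14.6% in that control.

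**Figure D3:**
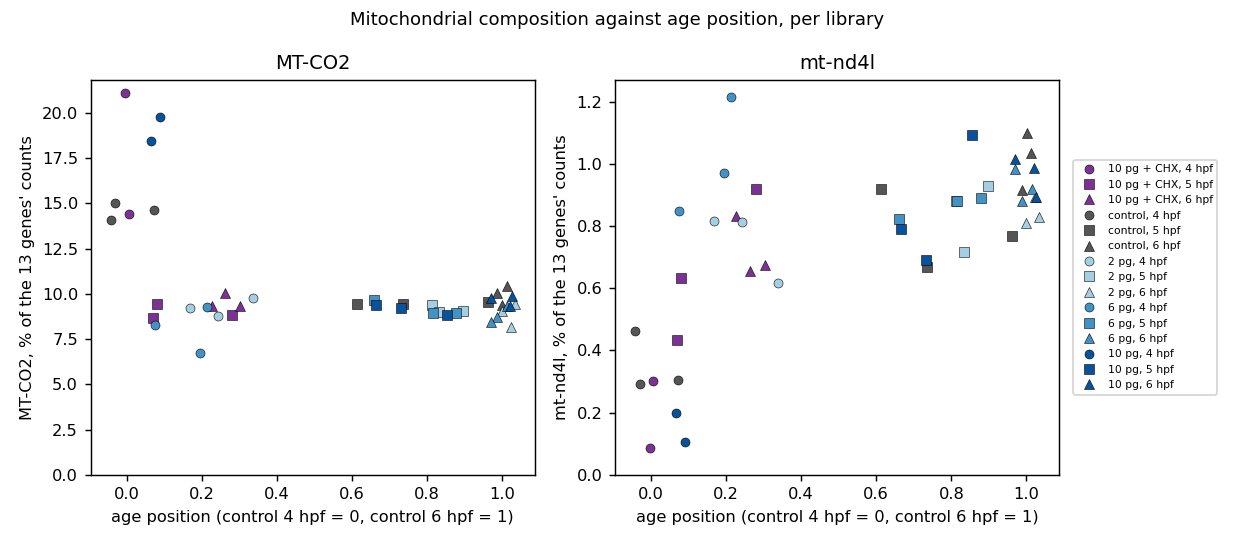
MT-CO2 (left) and mt-nd4l (right) as percent of the 13 genes' counts against the age position of each library, with control at 4 hpf as 0 and control at 6 hpf as 1; colours are treatments and shapes are ages. Between age positions of 0 and 0.35 there are libraries with MT-CO2 above 14% and libraries with MT-CO2 near 9%, and the lower set holds 2 pg and 6 pg at 4 hpf and CHX at 5 and 6 hpf.

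Single genes were compared with edgeR's quasi-likelihood test on all genes, with Benjamini-Hochberg adjustment and a threshold of 0.05, and changes are log2 fold changes with their standard errors (SE). Because all groups shared 1 estimate of a gene's spread, the SE and p do not reflect the spread of the groups compared alone. For MT-CO2 the SD was 41.1% of the mean in control at 4 hpf and 8.81% at 6 hpf. At 4 hpf, 9 of the 13 genes were lower with 2 pg than in control and none was higher. Of all genes tested, 14% were lower and 15% higher in that comparison. With 6 pg, 8 of the 13 were lower and none was higher, beside 7.25% of all genes lower and 8.44% higher. With 10 pg none of the 13 passed, 2 had an unadjusted p under 0.05, and DESeq2 also called 0. The median change of the 13 genes was -1.01 with 2 pg, -1.17 with 6 pg and -0.05 with 10 pg, against medians over all genes of -0.03, 0.01 and -0.07. Leaving out control replicate 3 reduced the count with 2 pg to 5, and leaving out 6 pg replicate 3 reduced the count with 6 pg to 5. With library totals in place of trimmed-mean (TMM) scaling, 10 of the 13 were lower with 2 pg and 7 with 6 pg. Of the 21075 genes tested, 3831 and 1579 were then lower with 2 pg and 6 pg, and 2369 and 1685 higher. The share of lower genes among all genes called with 2 pg was then 61.8%, against 48.4% with TMM.

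Among the complex IV genes, MT-CO2 fell most. Its level was 5249.6, 2684 and 6606 CPM in control, 1768, 1242 and 1161 CPM with 2 pg, 881, 862 and 1123 CPM with 6 pg and 4567 and 9942 CPM with 10 pg. All 6 libraries of the 2 lower doses lay below every control library. The change was -1.80 ± 0.34 with 2 pg (edgeR adjusted p = 0.000218) and -2.34 ± 0.35 with 6 pg (adjusted p = 5.4e-05). With 10 pg it was 0.58 ± 0.37 (adjusted p = 0.712). MT-CO3, a structural core subunit, changed by -1.16 ± 0.27 with 2 pg and -1.38 ± 0.27 with 6 pg, both past the threshold. MT-CO1 changed by -0.92 ± 0.31 with 2 pg (adjusted p = 0.0242) and by -1.48 ± 0.31 with 6 pg (adjusted p = 0.00181), although 1 of the 2 pg libraries, at 8967 CPM, lay above the lowest control, at 7001 CPM.

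The ATP synthase and complex III genes also fell. mt-atp8, a small membrane subunit of the ATP synthase, had 22.1, 13.7 and 11.5 CPM with 2 pg and 13.3, 13.7 and 7.86 CPM with 6 pg, against 72.8, 57.0 and 111 CPM in control. These were the largest changes among the 13 genes, -2.35 ± 0.38 with 2 pg (edgeR adjusted p = 2.65e-05) and -2.79 ± 0.39 with 6 pg (adjusted p = 1.47e-05). MT-ATP6, which forms part of the proton channel of the enzyme, changed by -1.37 ± 0.30 and -1.17 ± 0.30. MT-CYB, the cytochrome b subunit of complex III, had 1964, 1649.7 and 1313 CPM with 2 pg and 1170.5, 1197 and 1431 CPM with 6 pg, against 4824, 2779.9 and 6248 CPM in control. Its changes were -1.49 ± 0.28 (adjusted p = 0.000186) and -1.87 ± 0.28 (adjusted p = 6.16e-05), and neither dose overlapped with the controls. Of all genes tested, 29% with 2 pg and 15.7% with 6 pg were called in either direction. The share of all genes without overlap is not given here.

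The complex I genes were split. MT-ND3 and MT-ND6 passed the threshold with both doses, MT-ND3 at -1.01 ± 0.36 and -1.08 ± 0.36 and MT-ND6 at -0.96 ± 0.37 and -1.19 ± 0.37, and MT-ND2 passed with 2 pg alone (-1.32 ± 0.37, edgeR adjusted p = 0.00809) and had -1.04 ± 0.37 with 6 pg (adjusted p = 0.053). For MT-ND6 both doses overlapped with the controls, at 163 to 197 CPM with 2 pg and 127 to 181 CPM with 6 pg, against 168 to 553 CPM. MT-ND1, MT-ND4, MT-ND5 and mt-nd4l passed with neither dose. MT-ND1 had -0.84 ± 0.34 and -0.79 ± 0.34, and MT-ND4, also a proton-pumping subunit, -0.83 ± 0.37 and -0.96 ± 0.37. MT-ND5 had -0.48 ± 0.31 and -0.54 ± 0.31. mt-nd4l had 111, 109.6 and 107 CPM with 2 pg and 90.1, 124 and 147 CPM with 6 pg, against 101, 88.1 and 138 CPM in control. The 2 pg values lay within the control range and the 6 pg values reached above it, and its changes were 0.00 ± 0.35 and 0.14 ± 0.35.

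These falls were found at 4 hpf. At 5 and 6 hpf none of the 13 genes passed with 2, 6 or 10 pg against control in edgeR, none had an unadjusted p under 0.05, and DESeq2 called 0 in each of the 6 comparisons. Of all genes, 0.00474%, 0.176% and 0.223% passed at 5 hpf with 2, 6 and 10 pg, and 1.24%, 0.636% and 0.474% at 6 hpf. The changes of the 13 genes ranged from -0.08 to 0.57 at 5 hpf over the 3 doses. At 6 hpf they ranged from -0.42 to 0.12, with SEs of 0.27 to 0.37 for the 10 pg comparison. Changes well above 1 SE could have been missed, so these results do not show that the genes were unchanged. The test of the difference itself, the effect of a dose at 5 hpf minus its effect at 4 hpf, was positive and past the threshold for 7 genes with 2 pg and 6 with 6 pg, beside 4.88% and 1.83% of all genes with a positive difference past it. For MT-CO2 that difference was 1.99 ± 0.47 with 2 pg (adjusted p = 0.00626) and 2.44 ± 0.48 with 6 pg (adjusted p = 0.00479). The difference between 6 and 4 hpf was positive and passed for 4 genes with each dose, beside 7.11% and 2.48% of all genes, and for none of the 13 with 10 pg, beside 0.0474%. With 10 pg, edgeR found none of the 13 at an unadjusted p under 0.05 and DESeq2 called 0 as well.

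In control explants few of the 13 genes passed in the age comparisons. The single gene called higher, mt-nd4l at 6 against 4 hpf, was not called higher with library totals. At 5 against 4 hpf 5 genes were lower and none higher, beside 25.7% of all genes lower and 28.4% higher. At 6 against 4 hpf 3 were lower (MT-CO2, mt-atp8 and MT-CYB) and mt-nd4l was higher, beside 32.1% lower and 31.2% higher among all genes. Called in either direction were 54.1% of all genes at 5 against 4 hpf and 63.3% at 6 against 4 hpf. Both shares were larger than those of the 13 genes called. The genes called lower at 5 against 4 hpf were, however, a larger part of the 13 than of all genes. At 6 against 5 hpf none passed, beside 8.13% of all genes; none had an unadjusted p under 0.05 and DESeq2 called 0. MT-CO2 had 2601, 2303 and 2199 CPM in control at 6 hpf, against 5249.6, 2684 and 6606 CPM at 4 hpf, a change of -1.03 ± 0.34 (adjusted p = 0.00841). mt-atp8 had 32.2, 29.8 and 20.5 CPM at 6 hpf, against 72.8, 57.0 and 111 CPM at 4 hpf, and changed by -1.55 ± 0.37 (adjusted p = 0.000511). mt-nd4l had 257, 269 and 199.6 CPM at 6 hpf, against 101, 88.1 and 138 CPM at 4 hpf, and changed by 1.15 ± 0.36 (adjusted p = 0.00604). None of these 3 genes overlapped between the ages. MT-CYB, also called, did overlap, at 2694 to 3218 CPM at 6 hpf and 2780 to 6248 CPM at 4 hpf. Of all genes tested, 63.3% were called in either direction there, and the share of all genes without overlap is not given here. The counts moved with single libraries: at 5 against 4 hpf 8 genes passed without control replicate 2 of 4 hpf or replicate 3 of 5 hpf and 3 without control replicate 3 of 4 hpf or replicate 2 of 5 hpf, and at 6 against 4 hpf 7 passed without control replicate 2 of 4 hpf.

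The age comparison depends on the scaling. The TMM factors of the libraries without CHX lay between 0.729 and 0.870 at 6 hpf and between 1.06 and 1.26 at 4 hpf. With library totals alone, the median over all genes moved to -0.59 at 6 against 4 hpf, 7 of the 13 genes were lower, and none was higher. Of the 21075 genes tested, 8905 were then lower and 4787 higher. Among all genes called, 65.04% were then lower, against 50.7% with TMM. At 5 against 4 hpf 8 of the 13 were lower with totals, beside 7494 lower and 4200 higher of the 21075 genes tested. Of all genes called there, 64.1% were lower, against 47.6% with TMM. At 6 against 4 hpf the median of the 13 genes lay 0.34 below the median of all genes under either scaling. The 9 markers of the enveloping layer, the outer epithelium of the embryo, summed to 17619.5 to 22847 CPM in control at 6 hpf and 73.9 to 214 CPM at 4 hpf, and all 9 were higher at 6 hpf. Of 8 markers of primordial germ cells, 6 were lower at 6 hpf. The part of these cell types in the age comparison was not tested.

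CHX gave the broadest result with TMM scaling: with CHX, all 13 genes were lower than with 10 pg alone at 5 hpf and again at 6 hpf. Of all genes tested, 24.2% were lower and 25% higher at 5 hpf, and 27.2% were lower and 29% higher at 6 hpf. The median change of the 13 genes was -1.26 at 5 hpf and -1.12 at 6 hpf, against medians of 0.03 and 0.12 over all genes. At 4 hpf none of the 13 passed, beside 0.555% of all genes; none had an unadjusted p under 0.05 in edgeR and DESeq2 called 0. The median there was -0.40, with n = 2 in each group. With library totals in place of TMM, 9 of the 13 genes were lower at 5 hpf and none passed at 6 hpf. The 13 genes were measured in the same libraries and are not 13 separate results.

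For MT-CO1 the CHX libraries had 2951, 5515 and 5806 CPM at 5 hpf, against 9025, 9488 and 10197 CPM with 10 pg alone. At 6 hpf they had 5059.8, 5120.4 and 6000.0 CPM, against 8973, 9046 and 8744 CPM. The groups did not overlap at either age, and the changes were -1.01 ± 0.31 (edgeR adjusted p = 0.00753) and -0.73 ± 0.31 (adjusted p = 0.0448). MT-CO2 changed by -1.12 ± 0.34 and -0.85 ± 0.33, and MT-CO3 by -1.09 ± 0.27 and -0.80 ± 0.27. MT-CYB of complex III had 769, 1469 and 1849 CPM with CHX at 5 hpf, against 2867, 2805 and 3356 CPM with 10 pg alone, a change of -1.14 ± 0.28. At 6 hpf its change was -0.70 ± 0.28 (adjusted p = 0.0314), the smallest of the 13. Replicate 1 of CHX at 5 hpf was the lowest library for each of the genes named here.

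The complex I genes lay at the larger end. At 5 hpf MT-ND5 had 175, 533 and 471 CPM with CHX, against 839, 1147 and 871 CPM with 10 pg alone, without overlap, a change of -1.28 ± 0.31 (edgeR adjusted p = 0.00104). At 6 hpf MT-ND1, a membrane subunit close to the quinone site, had 331, 385 and 392 CPM with CHX, against 894, 861 and 869 CPM with 10 pg alone, a change of -1.24 ± 0.34 (edgeR adjusted p = 0.00278). MT-ND3 had 88.7, 95.9 and 84.3 CPM, against 265, 221 and 194 CPM, a change of -1.34 ± 0.36 (adjusted p = 0.00219). mt-nd4l had 80.3, 101 and 88.8 CPM, against 242, 218 and 191 CPM, and changed by -1.27 ± 0.36 (adjusted p = 0.00331). The 7 complex I genes ranged from -1.34 to -1.06 at 6 hpf, while the 4 genes of complexes III and IV ranged from -0.85 to -0.70. MT-ND4 had 403, 519 and 480.3 CPM with CHX at 6 hpf, against 1174, 1065 and 979.7 CPM, a change of -1.20 ± 0.37, and MT-ND2 and MT-ND6 changed by -1.06 ± 0.37 and -1.19 ± 0.37. None of the complex I genes with levels given here overlapped between CHX and 10 pg alone. At 6 hpf 56.2% of all genes tested were called in either direction, and the share of all genes without overlap is not given here. Of the ATP synthase genes, mt-atp8 had -1.42 ± 0.37 and MT-ATP6 -0.95 ± 0.30. This order was not tested, and at 5 hpf the 7 complex I genes ranged from -1.39 to -1.26 and the complex III and IV genes from -1.14 to -1.01. The make-up comes from the same counts. At 6 hpf MT-ND1 took 2.78% to 3.16% of the mitochondrial counts with CHX, against 3.74% to 4.07% with 10 pg alone. MT-CO1 took 41.9% to 44.2%, against 37.6% to 41.0%, and neither gene overlapped. The percentages of MT-CO2, MT-CO3 and MT-CYB did overlap at 6 hpf. At 5 hpf MT-ND1 overlapped, at 2.64% to 3.51% with CHX and 3.38% to 4.06% with 10 pg alone, and MT-CO1 did not.

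Against the uninjected control the 13 genes were likewise all lower with CHX at 5 and at 6 hpf, beside 24.6% and 26.4% of all genes lower. This comparison shares its CHX libraries with the one against 10 pg. The changes ranged from -1.20 to -0.80 at 5 hpf and from -1.44 to -0.75 at 6 hpf. At 5 hpf the result rested on single libraries: leaving out control replicate 3, or CHX replicate 1, left none of the 13 genes past the threshold. At 4 hpf none of the 13 passed against control, beside 0.251% of all genes; 2 had an unadjusted p under 0.05 in edgeR and DESeq2 called 0.

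The CHX comparisons also depend on the scaling. The TMM factors were 1.18 to 1.32 in the CHX libraries of 5 and 6 hpf, against 0.729 to 1.07 in the other libraries of those ages. With library totals alone, against 10 pg, 9 of the 13 genes were lower at 5 hpf and none passed at 6 hpf, where the median of the 13 was -0.56 and the median of all genes was 0.68. Of the 21075 genes tested, 3751 were then lower and 6686 higher at 5 hpf, and 3729 lower and 8706 higher at 6 hpf. Among all genes called, 29.99% were then lower at 6 hpf, against 48.3% with TMM, and 35.9% at 5 hpf, against 49.2%. Against control, none of the 13 passed at 5 hpf and 4 were lower at 6 hpf. Of the 21075 genes tested, 3430 were then lower and 7138 higher at 5 hpf, and 3671 lower and 8369 higher at 6 hpf. Of all genes called, 32.5% and 30.5% were then lower at 5 and 6 hpf, against 50.5% and 48.2% with TMM. All 13 genes still lay below the median of all genes at both ages in both comparisons. Relative to that median, the 13 genes stood at -1.23 with totals and -1.24 with TMM at 6 hpf against 10 pg. The 9 enveloping layer markers summed to 66.3 to 215 CPM with CHX at 6 hpf, against 18546 to 26167 CPM with 10 pg alone. All 9 were lower, and krt17, krt92, cyt1 and anxa1c were at 0 in 7, 4, 4 and 13 of the 43 libraries. Of 8 markers of primordial germ cells, 5 were higher with CHX at 6 hpf and 0 lower. The part of these cell types in the result was not tested.

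Within the CHX group most of the 13 genes were lower at 5 and 6 hpf than at 4 hpf. The age position of the CHX libraries was -0.0034 and 0.0053 at 4 hpf, 0.0694 to 0.281 at 5 hpf and 0.227 to 0.303 at 6 hpf. At 5 against 4 hpf 9 genes were lower with CHX, beside 7.59% of all genes, and at 6 against 4 hpf 8 were lower, beside 13.1%. At 6 against 5 hpf none passed, beside 0.0664% of all genes; none had an unadjusted p under 0.05 in edgeR and DESeq2 called 0. MT-CO2 had 1113, 1142 and 1368 CPM with CHX at 6 hpf, against 2971 and 7270.2 CPM with CHX at 4 hpf, a change of -2.08 ± 0.37 (adjusted p = 0.000102). MT-ND3 changed by -1.76 ± 0.39 (adjusted p = 0.0011) and mt-nd4l by 0.96 ± 0.41 (adjusted p = 0.076). Without CHX replicate 2 of 4 hpf, 2 genes remained past the threshold at 5 against 4 hpf and 2 at 6 against 4 hpf. The effect of CHX on 10 pg explants was not shown to differ between ages. For 6 against 4 hpf none of the 13 genes passed in edgeR, beside 27% of all genes called. In edgeR 3 of them had an unadjusted p under 0.05, and DESeq2 called 0. For 5 against 4 hpf none passed and 3 had an unadjusted p under 0.05, beside 13.5%; DESeq2 was not run for it. The differences ranged from -1.29 to -0.19 for 6 against 4 hpf with SEs of 0.42 to 0.58 and n = 2 in each group at 4 hpf.

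The nuclear genes whose products work with these 13 were counted in lists by complex, and the roles given for them are known mainly from mammals. With CHX at 6 hpf, against 10 pg alone, 29 of 35 nuclear complex I genes were lower and 2 higher, 7 of 9 of complex III were lower, 9 of 12 of complex IV and 11 of 14 of the ATP synthase, with 0 higher in these 3 lists. Their medians were -1.45, -0.96, -1.72 and -1.29, beside 27.2% of all genes lower and a median of 0.12 over all genes. With library totals alone 22, 3, 8 and 10 genes of these 4 lists were lower and 4, 0, 0 and 0 higher. All 4 medians stayed below 0. Of the 21075 genes tested, 3729 were lower and 8706 higher with totals. Complex II, which has no mitochondrially encoded subunit, had 1 of 4 genes lower (SDHC, -0.62 ± 0.24) and a median of -0.13, but 2 higher and a median of 0.44 with totals. NDUFA6, an accessory subunit of complex I, changed by -3.12 ± 0.41, COX7C of complex IV by -2.33 ± 0.30 and ATP5PD of the ATP synthase by -2.87 ± 0.33. At 5 hpf 22 of the 35 complex I genes were lower and 1 higher, and 4 of 9, 8 of 12 and 11 of 14 genes of complexes III and IV and the ATP synthase were lower, beside 24.2% of all genes lower and 25% higher.

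For the lists of genes that read and maintain the mitochondrial genome, the shares over all genes with CHX are given first. They are 27.2% lower and 29% higher at 6 hpf and 24.2% lower and 25% higher at 5 hpf. With totals, 3729 of the 21075 genes tested were lower and 8706 higher at 6 hpf. At 6 hpf with CHX, 46 of 75 genes for mitochondrial ribosomal proteins were lower and 6 higher, with a median of -0.70, and with totals 22 were lower and 15 higher. Of 25 genes for transcription and RNA processing, 8 were higher and 5 lower, close to the shares over all genes, with a median of -0.02, which moved to 0.55 with totals. tfb2m, a factor that starts transcription at mitochondrial promoters, changed by -2.39 ± 0.36, and ptcd3, which binds mitochondrial ribosomes, by 2.00 ± 0.22. At 5 hpf 13 of these 25 were higher and 4 lower; POLRMT, the RNA polymerase that transcribes the mitochondrial genome, was higher by 2.31 ± 0.29 (edgeR adjusted p = 6.9e-08). Of 14 translation factors 5 were higher and 5 lower at 6 hpf, with mtif3, an initiation factor of mitochondrial ribosomes, at -3.08 ± 0.38. Of 12 genes that maintain mitochondrial DNA, 5 were lower and 2 higher; POLG2 and POLG, subunits of its DNA polymerase, changed by -2.03 ± 0.37 and -1.30 ± 0.22. The stress list had 6 of 13 genes lower and 3 higher, led by atf4a at -3.53 ± 0.49, and the 6 biogenesis regulators had 4 higher and 1 lower (GABPA, -1.55 ± 0.19). With totals 4 of the DNA maintenance genes were higher and 2 lower, and 5 of the stress genes higher and 3 lower.

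At 4 hpf with 2 pg, where 9 of the 13 mitochondrial genes were lower, 18 of 35 nuclear complex I genes were lower and 0 higher, and 47 of 75 ribosomal protein genes were lower and 2 higher, with medians of -0.61 and -0.93, beside 14% of all genes lower and a median of -0.03. Complex IV had 2 of 12 lower and 1 higher, near or below the shares over all genes of 14% lower and 15% higher. The ATP synthase had 7 of 14 lower and 2 higher, the latter near the share over all genes. With 6 pg 14 of 35 were lower and 0 higher for complex I, 34 of 75 lower and 1 higher for the ribosomal proteins, and 3 of 14 lower and 2 higher for the ATP synthase, beside 7.25% of all genes lower and 8.44% higher. Complex IV, with 1 of 12 lower and 0 higher, was near the share over all genes. NDUFS4 of complex I changed by -2.28 ± 0.43 with 2 pg, MRPS17 of the small mitochondrial ribosomal subunit by -2.14 ± 0.32, and PTCD1, which acts on mitochondrial RNA, by -1.61 ± 0.21. Enveloping layer markers summed to 73.9 to 214 CPM in control, 503 to 1417 CPM with 2 pg, 150.3 to 557 CPM with 6 pg and 460.4 to 467 CPM with 10 pg, and 6 and 3 of the 9 were higher with 2 and 6 pg. Their part was not tested.

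In control explants between 4 and 6 hpf several nuclear genes of complex IV and the ATP synthase were higher. Of the mitochondrial genes, 1 of 3 in complex IV (MT-CO2) and 1 of 2 in the ATP synthase (mt-atp8) were lower. Of all genes tested 32.1% were lower and 31.2% higher, so these small counts do not set the mitochondrial genes apart. At 6 against 4 hpf 8 of 12 nuclear complex IV genes were higher and 0 lower (median 1.13), and 8 of 14 of the ATP synthase were higher and 1 lower (median 0.88). cox8a of complex IV changed by 3.58 ± 0.34 and ATP5PF of the ATP synthase by 2.81 ± 0.30. Complex I had 15 of 35 higher and 5 lower, and complex III 6 of 9 higher and 1 lower. The mitochondrial ribosomal proteins had 26 of 75 higher and 25 lower, near the shares over all genes. The median over all genes was -0.05. With library totals alone 4787 of the 21075 genes tested were higher and 8905 lower. Complex IV then had 6 higher and 1 lower and the ATP synthase 6 higher and 2 lower. Complex I then had 12 higher and 11 lower with its median at -0.10, complex III 1 higher and 2 lower, and the ribosomal proteins 15 higher and 39 lower.

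**Figure D4:**
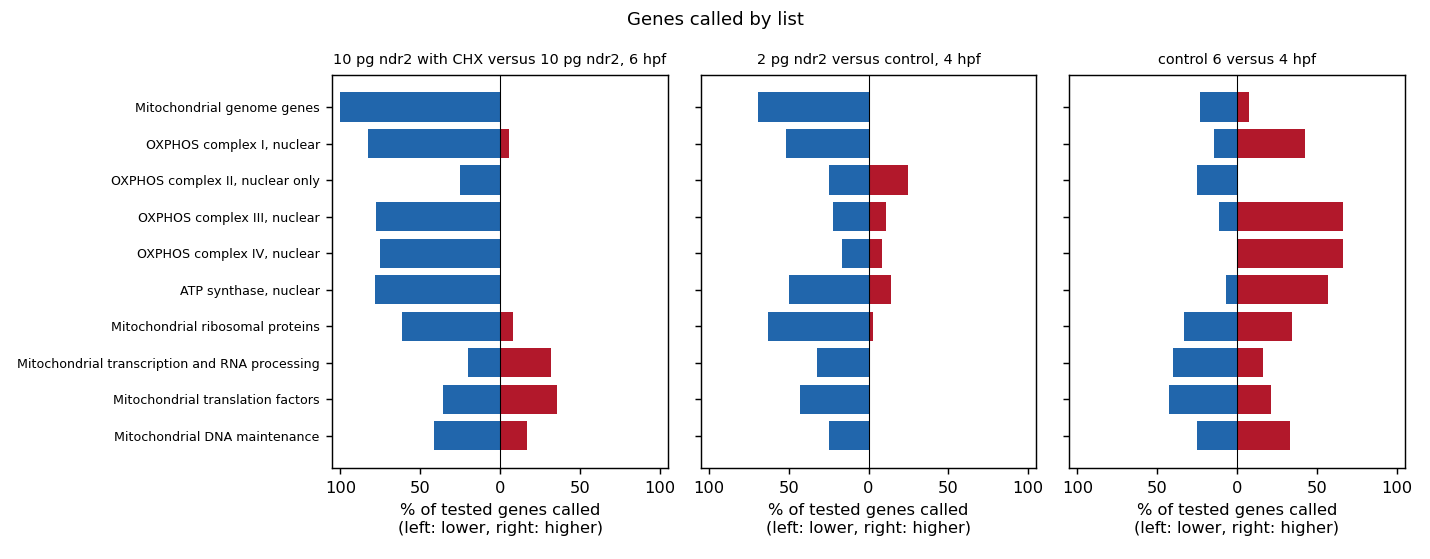
Percent of tested genes called lower (left of 0) and higher (right of 0) in the 13 mitochondrial genes and in lists of nuclear genes with mitochondrial roles, for 3 comparisons. With CHX at 6 hpf all 13 mitochondrial genes and 29 of 35 nuclear complex I genes are lower, and in control at 6 against 4 hpf 8 of 12 nuclear complex IV genes are higher.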

How the data were processed

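Gene counts of 45 zebrafish explant libraries were analysed as the authors deposited them, as whole counts per Ensembl gene in 1 table. The submitters' processing notes name STAR, featureCounts, DESeq2 and GRCz11, without versions, and the labels do not give the kit, the selection of RNA or the strand setting. Groups came from the labels, and 2 columns with equal values were left out.

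Levels in CPM were computed from library totals scaled with trimmed-mean (TMM) factors. Genes were kept by edgeR's filterByExpr (minimum count 10, minimum total 15). A quasi-likelihood model with 1 term per group was fitted to all 43 libraries with edgeR 4.0.16 (R 4.3.3, limma 3.58.1), the common dispersion was 0.128, and p-values were adjusted within each of 23 comparisons and 5 added after the data had been seen. DESeq2 1.42.0, other scalings and filters, libraries left out, and a replicate block were the alternatives. Shares carry no p-value: the permutation test planned for them is not reported, since a share sums over chosen genes. Python 3.11.15 with pandas 2.3.3, scipy 1.17.1 and matplotlib 3.10.9 gave shares, intervals and plots. The fits were also run on simulated counts, drawn independently for each gene with the same spread in every group. Such counts cannot show how the fits behave when groups differ in spread or when genes of a library shift together.

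The 13 genes and the lists of nuclear genes and markers were chosen with earlier results of these data known. All 13 genes are named with values, and of a nuclear list at most 4 called genes with the largest change per comparison could be named. Of 268 list entries, 242 matched by symbol and 8 by base symbol. Levels per length were not used here, and no sequence is shown. Reads from copies of mitochondrial DNA in the nuclear genome cannot be told apart from those of the 13 genes.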

Additional observations from a re-analysis of the deposited data

Results flagged for a closer look

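The effects of the lower ndr2 doses on the 13 mitochondrial genes differed between ages by a test of the difference itself, in comparisons added after the data had been seen. For 2 pg the effect at 5 hpf minus that at 4 hpf was positive and past the threshold for 7 of the 13 genes, beside 4.88% of all genes. At 6 against 4 hpf this held for 4, beside 7.11%. For 6 pg these numbers were 6 and 4, beside 1.83% and 2.48%. The called effects at 4 hpf were falls, and none of the 13 genes passed at 5 or 6 hpf with either dose. mt-atp8 had the largest difference each time, 2.49 ± 0.52 (edgeR adjusted p = 0.00195) and 1.96 ± 0.52 (adjusted p = 0.00874) with 2 pg, and 2.71 ± 0.52 (adjusted p = 0.00394) and 2.79 ± 0.52 (adjusted p = 0.00244) with 6 pg. All 4 tests share the libraries of 4 hpf that stood apart from the others of that age, and those libraries and the doses cannot be told apart.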

How the results depend on the processing

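Called changes of single genes stayed past the threshold in 1002 tests under other settings and missed it in 121; with 1 library left out they stayed in 444 and missed in 109, and none reversed. With library totals only, 0 and 4 of the 13 genes passed for CHX against control at 5 and 6 hpf, 0 for CHX against 10 pg at 6 hpf, 8 for control at 5 against 4 hpf and 7 at 6 against 4 hpf. The share of lower genes among all genes called then moved to 85.6%, against 69.1%, with 2 pg at 6 hpf, to 34.3%, against 20.1%, with 6 pg at 6 hpf, and to 21.4%, against 44.9%, for the change of the CHX effect by age. That change of effect from 4 to 6 hpf gave 1 gene with all 45 columns, 2 with the shared column in 10 pg alone and 2 with the libraries of the ages compared only, the last of which gave 8 for CHX against control at 5 hpf. The cause was not tested.

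With 1 library left out in turn, the genes passed numbered 5 to 10 with 2 pg and 5 to 10 with 6 pg at 4 hpf, 0 to 13 for CHX against control at 5 hpf and 11 to 12 at 6 hpf, and 10 to 13 for CHX against 10 pg at 5 hpf and 10 to 12 at 6 hpf. They numbered 3 to 8 for control at 5 against 4 hpf, 3 to 7 at 6 against 4 hpf, and 2 to 9 for each of these ages within CHX. The change of the CHX effect gave 0 to 1, with 1 gene without 10 pg replicate 2 of 4 hpf. When the 4 hpf explants with 2 pg or 6 pg were left out, 12 and 13 genes passed for CHX against control and 13 and 13 against 10 pg at 5 and 6 hpf, 5 and 3 for the control ages and 8 and 7 for the ages within CHX. Averaged within treatment, the share differed by -1.10 points at 5 against 4 hpf and by -1.26 at 6 against 4 hpf, with ranges of -1.41 to -0.793 and -1.57 to -0.948 with 1 library left out. Without the 2 pg and 6 pg groups these were -2.16 and -2.21 points.

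A replicate block over all ages changed no count of the 13 genes; a replicate block within each age gave 2 for control and 5 for CHX at 6 against 4 hpf. Whether equal numbers pair the libraries is not settled by the correlations, since a mean can hide pairing in some groups. The 288 same-numbered pairs had a mean correlation of 0.0137 over 6868 genes, from -0.613 to 0.882, and 574 other pairs -0.00604. Within an age, 32 of 83 same-numbered pairs and 58 of 164 other pairs had a correlation over 0.1. A share from ribosomal RNA genes was not run, as no row could be matched. The spread between replicates and the choice of scaling, more than counting error, limit these results.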
